A study of Mus musculus with 20 samples.

Results

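The nuclear-encoded subunits of the respiratory chain and ATP synthase were followed in eosinophils and macrophages of the mouse. The cells were labelled intra tumoral, from mice with colonic tumors, or came from naive mouse colon. Members were taken by gene name from both expression tables (names beginning Nduf with a subunit letter, Sdha to Sdhd, Uqcr, Cox4 to Cox8, Cyc1, Cycs and Atp5, without assembly factors and pseudogenes). They numbered 86 of 50600 gene names. Complex I had 35 members, complex II 4, complex III with cytochrome c 10, complex IV 20 and complex V 17. The name rule also took in Atp5s and Atp5sl, which are not core subunits of ATP synthase, and Ndufa4 and Ndufa4l2 were counted with complex IV, where the Ndufa4 protein is found.

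All mice were C57BL/6 wild type. The tumor groups were 7 libraries of eosinophils and 6 of macrophages from mice with colonic tumors, given as intra tumoral and CAC in the labels. The naive groups were 2 libraries of eosinophils and 5 of macrophages from the colon of naive mice. The colon was digested with enzymes and both cell types were then sorted by flow cytometry. RNA was read by CEL-Seq, which barcodes and counts the 3′ ends of polyadenylated transcripts. The sources used here give neither the age and sex of the mice nor the sorting markers, nor whether each library came from a separate animal. P-values therefore measure the spread between these libraries, which may be partly technical. Macrophages are the resident phagocytes of the gut wall, and eosinophils are granulocytes that live in the healthy intestinal lamina propria.

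The respiratory chain sits in the inner mitochondrial membrane. Complex I takes electrons from NADH and complex II takes them from succinate. Complex III passes them to cytochrome c, a small soluble protein, and complex IV hands them to oxygen. The proton gradient built on the way drives complex V, the ATP synthase. Most subunits are encoded in the nucleus, and a small set in the mitochondrial genome. Macrophages are known for switching between glycolysis and respiration with their activation state. Nuclear respiratory chain genes are known targets of the transcription factors NRF1, GABP (an ETS factor) and YY1.

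Promoters of 250 bases before to 50 bases after the start were taken from RefSeq (GRCm38.p6), in which 67 of the 86 members had an entry. The NRF1 core, GCGCA and GCGC with any 1 base between them, searched on both strands, was present in 17 of these 67 promoters (25.4%), against 5.19% of 27025 promoters of all genes. It was found in 6 of 13 complex V and 7 of 31 complex I promoters, and in 1 of 14 complex IV promoters. The ETS core CCGGAAG was present in 23.9% of the members' promoters, against 9.93% of all. The YY1 core AAGATGG was present in 14.9%, against 7.28% of all. The 4 promoters printed here carry the NRF1 core and belong to the members with a single entry and the smallest p among those whose transcripts were lower in tumor eosinophils than in tumor macrophages. Capitals mark matches to the NRF1 core or the ETS core on either strand, the sequences run 5′ to 3′ on the strand of the gene, and all 4 genes lie on the minus strand at chr4:123718137-123718436, chr9:50603800-50604099, chr16:37654319-37654618 and chr16:91931581-91931880.
Ndufs5: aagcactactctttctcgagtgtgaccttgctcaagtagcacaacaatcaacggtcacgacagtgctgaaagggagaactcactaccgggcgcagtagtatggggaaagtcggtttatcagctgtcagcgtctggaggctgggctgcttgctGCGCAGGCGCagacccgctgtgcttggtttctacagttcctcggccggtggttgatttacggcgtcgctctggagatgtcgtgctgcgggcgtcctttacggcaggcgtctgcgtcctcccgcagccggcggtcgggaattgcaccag
Sdhd: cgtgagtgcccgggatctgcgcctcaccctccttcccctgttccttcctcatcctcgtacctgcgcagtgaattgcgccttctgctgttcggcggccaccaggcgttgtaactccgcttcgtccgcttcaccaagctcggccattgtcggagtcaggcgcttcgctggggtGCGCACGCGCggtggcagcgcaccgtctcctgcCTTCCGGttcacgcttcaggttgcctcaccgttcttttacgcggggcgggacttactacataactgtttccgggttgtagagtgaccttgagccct
Ndufb4: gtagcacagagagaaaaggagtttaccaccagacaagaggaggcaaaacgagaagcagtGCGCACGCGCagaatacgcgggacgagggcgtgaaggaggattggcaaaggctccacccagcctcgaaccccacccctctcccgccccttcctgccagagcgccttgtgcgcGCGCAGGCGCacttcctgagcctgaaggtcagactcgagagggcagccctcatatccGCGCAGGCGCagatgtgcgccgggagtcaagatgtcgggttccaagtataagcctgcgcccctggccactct
Atp5o: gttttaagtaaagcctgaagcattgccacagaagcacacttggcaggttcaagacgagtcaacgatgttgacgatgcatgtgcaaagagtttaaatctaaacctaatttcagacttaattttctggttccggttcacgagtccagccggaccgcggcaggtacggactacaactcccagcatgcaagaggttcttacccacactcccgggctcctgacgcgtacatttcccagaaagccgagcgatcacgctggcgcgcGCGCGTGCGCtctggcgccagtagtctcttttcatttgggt
Ndufb4 holds 3 NRF1 cores, and Sdhd holds 1 NRF1 core and 1 ETS core that do not overlap. These matches are letters in a window and were not tested as binding sites.

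Depth ran from 1978466 to 8520874 reads in tumor eosinophils, 4452513 and 7469714 in naive eosinophils, 2289383 to 7636153 in tumor macrophages and 1477255 to 7945096 in naive macrophages. The 12 eosinophil markers summed to 841 to 9629 RPM (reads per 1000000 library reads) in tumor eosinophils and 1898 and 2517 in naive eosinophils, against 10.5 to 51.6 in tumor and 29.9 to 75.7 in naive macrophages, where Epx was at 0 in every tumor library. The 12 macrophage markers summed to 657 to 1128 RPM in tumor and 690 and 908 in naive eosinophils, and to 12683 to 17682 in tumor and 10894 to 15071 in naive macrophages. Both lists were thus highest in the cell type they name, but other cells' transcripts were present. The 14 neutrophil markers summed to 4820 to 14709 RPM in tumor (mean 9519, against 2746 for the eosinophil markers) and 6486 and 11539 in naive eosinophils. Their sum was above that of the eosinophil markers in all 7 tumor and both naive eosinophil libraries. The 12 B and plasma cell markers summed to 7228 to 17580 in tumor eosinophils, 4474 and 7557 in naive eosinophils, 9292 to 72446 in tumor macrophages and 18137 to 75619 in naive macrophages. The 14 epithelial markers ran from 1939 to 5867 in tumor eosinophils, 1774 and 2836 in naive eosinophils, 1374 to 2372 in tumor macrophages and 581 to 3840 in naive macrophages. The part of these cells in the results was not tested, and in bulk RNA fewer cells of a type and less RNA per cell cannot be told apart.

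The first question was how much respiratory chain RNA each group carried. As a share of all reads, the 86 members together made up 6952 ± 1059 RPM in tumor eosinophils (SD, n = 7), against 4874 ± 591 in naive eosinophils (n = 2). In tumor macrophages they made up 9020 ± 165 (n = 6), against 7444 ± 509 in naive macrophages (n = 5). Every tumor library stood above every naive library of its cell type, at 5617 to 8510 against 4456 and 5292 in eosinophils and at 8844 to 9282 against 6862 to 8206 in macrophages. The mitochondrial genome took 15.2 to 35.2% of reads in tumor eosinophils, 17.9 and 24.5% in naive eosinophils, 8.23 to 10.4% in tumor macrophages and 8.28 to 15.9% in naive macrophages. With those reads left out of the total, the sums were 9365 ± 2293 in tumor against 6176 ± 382 in naive eosinophils. In macrophages they were 9972 ± 261 in tumor against 8426 ± 880 in naive libraries. On this total the eosinophil groups still did not overlap, at 6624 to 12409 against 5906 and 6446. The macrophage groups did overlap, at 9638 to 10362 against 7482 to 9756. On the authors' scale, where each library is divided by its size factor, the sums ran from 24252 to 35016 normalised reads in tumor eosinophils against 22898 and 23930 in naive eosinophils. They ran from 30362 to 36891 in tumor macrophages against 25617 to 35729 in naive macrophages, so the macrophage groups overlapped on this scale and the eosinophil groups lay close together without overlap.

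**Figure D1:**
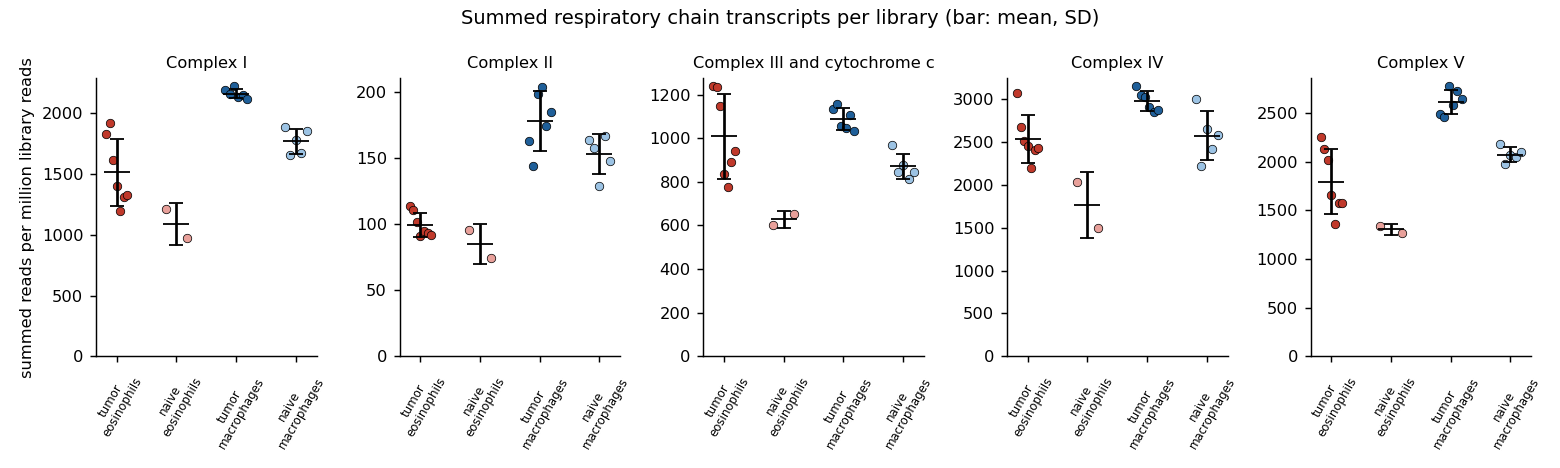
Summed transcripts of the members of each complex (y axis, RPM, from 0) in each library, by group. Points are libraries and the bar is the mean with its SD. Complex V sums sat at 2455 to 2777 in tumor macrophages, above the 1971 to 2183 of naive macrophages, and complex II sums sat at 91.2 to 114 in tumor eosinophils, below the 144 to 204 of tumor macrophages.

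By complex and as RPM, the tumor libraries lay above the naive ones without overlap for complexes III to V in eosinophils and for complexes I, III and V in macrophages. Complex III with cytochrome c made up 777 to 1242 RPM in tumor eosinophils against 601 and 655 in naive eosinophils. Complex I made up 2116 to 2223 in tumor macrophages against 1661 to 1891 in naive macrophages. Complex II overlapped in both cell types, at 91.2 to 114 in tumor against 74.6 and 95.8 in naive eosinophils and at 144 to 204 in tumor against 129 to 167 in naive macrophages. With mitochondrial reads left out of the total, complex V in eosinophils overlapped, at 1602 to 3268 in tumor against 1635 and 1673 in naive libraries. So did complex III with cytochrome c in macrophages, at 1124 to 1278.5 in tumor against 895 to 1151 in naive libraries. Complexes III and IV in eosinophils and I and V in macrophages stayed without overlap. On the authors' scale only complex IV in eosinophils stayed without overlap, at 9475 to 12633 normalised reads against 8028 and 8831. Complex III with cytochrome c in eosinophils then had 3353 to 5201 against 2600 and 3515. Complex V in macrophages had 8820 to 10096 against 7360 to 9775.

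No single member passed the test in eosinophils. None of the 81 measured members was called between tumor and naive eosinophils by limma at an adjusted p under 0.05, where 4.61% of 12967 genes were called, 2.42% higher and 2.19% lower. The median log2 change of the members was 0.24, against 0.01 over all genes, and 60 members were positive and 21 negative. By complex the median was 0.24 for complex I, 0.08 for II, 0.40 for III with cytochrome c, 0.30 for IV and 0.17 for V. At an unadjusted p under 0.05, 13 members were higher in tumor and 0 lower, where 9.86% of all genes were higher at that threshold. edgeR's quasi-likelihood test also called 0 members, and DESeq2 called 3, Cycs, Ndufv2 and Cox7a2l, all higher, where it called 10.5% of all genes. The median SE of a member was 0.34 on the log2 scale, and Cox6a2, Cox7a1, Cox7b2, Cox8b and Cox8c were too low to be tested. Beside these values, 5 of 14 neutrophil markers were higher in tumor eosinophils, and of 10 measured macrophage markers 4 were higher and 1 lower. Of the other markers, 3 of 12 eosinophil, 2 of 14 epithelial and 1 of 10 stromal and endothelial ones were lower. The part of these cells was not tested.

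**Figure D2:**
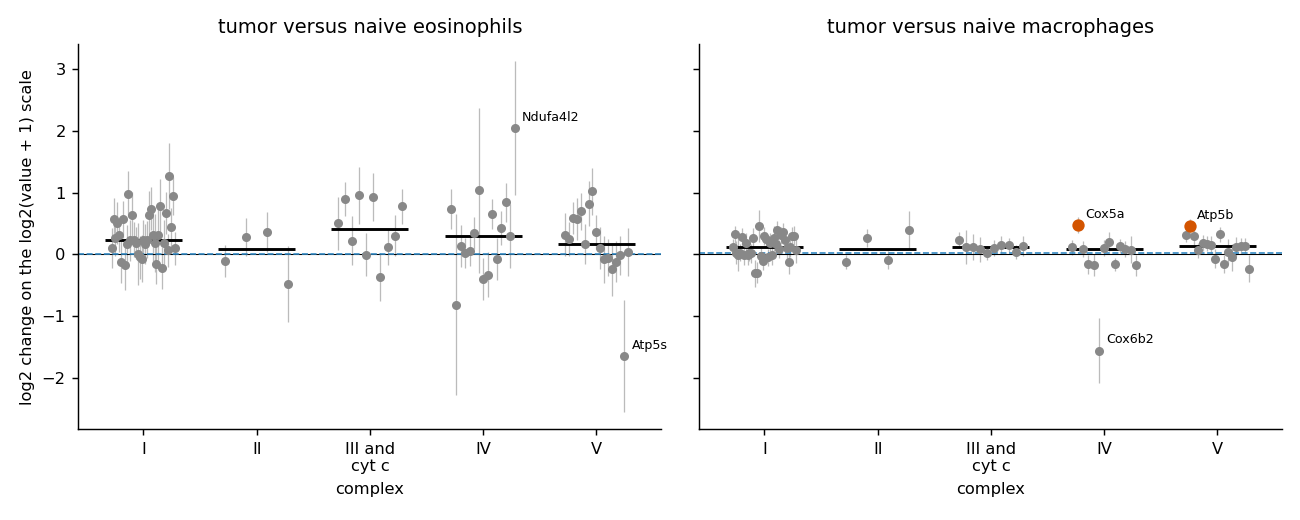
Log2 change of each measured member between tumor and naive libraries (y axis, on the log2(value + 1) scale) by complex, for eosinophils (left) and macrophages (right). Points are genes with SE bars, orange points passed limma's test, black bars are the complex medians and the dashed line is the median of all genes. Both panels lie mostly above 0, and the orange points are Cox5a and Atp5b in macrophages.

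Of the electron carriers and complex III, Cycs, which encodes the somatic cytochrome c, had the smallest p. It had 1407 to 2031 normalised reads in tumor eosinophils (median 1699), against 718 and 1198 in naive eosinophils. All tumor libraries lay above both naive ones, with a log2 change of 0.89 ± 0.28 (SE, limma adjusted p = 0.094). Uqcrq, a small supernumerary subunit of complex III, had 609 to 963 (median 695) in tumor eosinophils, against 510 and 379 in naive eosinophils, again without overlap (log2 change 0.78 ± 0.28, limma adjusted p = 0.143). Uqcrc1, a core subunit, had 159 to 280 in tumor eosinophils against 190 and 56.8 in naive eosinophils, with a log2 change of 0.93 ± 0.39 (limma adjusted p = 0.214). The first naive library lay within the tumor range and the second below it. Cyc1, which encodes the heme-bearing cytochrome c1, ranged from 102 to 325 in tumor eosinophils and was 197 and 123 in naive eosinophils.

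In complex I, Ndufv2, an iron-sulfur subunit of the NADH-oxidising module, had 85.0 to 132 normalised reads in tumor eosinophils (median 103), against 63.8 and 48.3 in naive eosinophils. The groups did not overlap, and the log2 change was 0.95 ± 0.31 (limma adjusted p = 0.112). Ndufa7 and Ndufs8, an accessory and an iron-sulfur subunit, had log2 changes of 0.98 ± 0.38 and 1.27 ± 0.54 with limma adjusted p of 0.17 and 0.216. Both overlapped between groups: Ndufs8 had 24.9 to 55.2 in tumor eosinophils, against 28.4 and 6.04 in naive eosinophils. The 35 members of complex I ran from -0.22 to 1.27 on the log2 scale, and 28 were positive.

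No complex II member passed at an unadjusted p under 0.05 in eosinophils. Sdha, the flavoprotein that oxidises succinate, had 200 to 290 normalised reads in tumor eosinophils (median 229), against 256 and 254 in naive eosinophils (log2 change -0.11, 95% interval -0.68 to 0.45). Sdhb, the iron-sulfur subunit, had 62.0 to 97.6 in tumor eosinophils against 62.6 and 72.5 in naive eosinophils, with a log2 change of 0.28 and a 95% interval of -0.38 to 0.94. The membrane anchors Sdhc and Sdhd had log2 changes of 0.36 and -0.49, with intervals of -0.33 to 1.05 and -1.82 to 0.85. Values of this precision do not show that complex II was unchanged.

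In complex IV, Cox7a2l had 438 to 547 normalised reads in tumor eosinophils (median 490), against 353 and 270 in naive eosinophils, without overlap. This gene, also known as Scaf1, is known for joining complex III and complex IV into supercomplexes, and C57BL/6 mice are known to carry a shortened form that is defective in this. Its log2 change was 0.65 ± 0.25 (limma adjusted p = 0.157). Cox8a had 2584 to 4278 in tumor eosinophils, against 2962 and 1351 in naive eosinophils, and Cox4i1, the main isoform of a regulatory subunit, had 597 to 904 against 688 and 295. In both the first naive library lay within the tumor range. In complex V, Atp5g2, a copy of the c-ring subunit gene, had 953 to 1726 in tumor eosinophils against 1229 and 386 in naive eosinophils. Atp5e and Atp5c1, the epsilon and gamma subunits of the rotor stalk, had limma adjusted p of 0.227 and 0.229 and did not overlap, at 190 to 247 against 186 and 90.6 and at 300 to 373 against 273 and 180. Atp5s had 0 to 9.71 in tumor eosinophils against 12.8 and 21.7 in naive eosinophils, and it passed the filter on low values through the naive libraries alone. In all, 7 members had every tumor eosinophil library above both naive ones, where 7.33% of all genes did, and 1 had every one below, where 9.76% did. That 1 was Atp5s.

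The pair of naive eosinophil libraries set the precision of these values. Of the 81 members, 15 were over 1 and 10 under -1 in the log2 ratio of naive library 1 to naive library 2, with a median of 0.01. Without naive library 1, limma called 6 members, Atp5e, Atp5g2, Cox4i1, Cox8a, Ndufs8 and Uqcrc1, all higher in tumor, where 7.44% of all genes were called, and without naive library 2 it called 0, where 0.731% were. Within tumor eosinophils, libraries 1, 2 and 3 had 75, 65 and 56 of the 81 members above the group mean, and libraries 4 to 7 had 16 to 26. Libraries 2 and 3 were also those in which the mitochondrial genome took 34.9 and 35.2% of reads. With both left out limma called 0 members, as it did with all libraries, so this count cannot show their weight. The median log2 change of the members was then 0.14, against 0.24 with all libraries, and that of all genes was -0.03 against 0.01.

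In macrophages 2 members rose in tumors and 0 fell, of 78 measured. limma called 17.1% of 11520 genes in this comparison, 8.5% higher and 8.59% lower, so the 2.56% of members called was below the share of all genes. The median log2 change was 0.11 for the members and 0.03 for all genes, with 57 members positive and 21 negative, and the median SE was 0.15. At an unadjusted p under 0.05, 8 members were higher and 1 lower, where 30.3% of all genes passed in either direction and 15.3% were higher. With each library scaled to its total reads instead, 14 members were called, all higher, where 20.8% of all genes were called. Beside these values, 6 of 10 measured neutrophil markers were higher and 5 of 9 stromal and endothelial markers lower in tumor macrophages. The 10 T and NK cell markers summed to 102 to 214 RPM in tumor macrophages against 428 to 561 in naive macrophages, without overlap, and 1 of the 5 measured was lower. The part of these cells was not tested. Atp5s, Cox4i2, Cox6a2, Cox7a1, Cox7b2, Cox8b, Cox8c and Ndufa4l2 were too low to be tested.

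Atp5b, the catalytic beta subunit of ATP synthase, had 439 to 572 normalised reads in tumor macrophages (median 494), against 421, 359, 358, 345 and 322 in naive macrophages. It rose by a log2 change of 0.46 ± 0.12 (SE, limma adjusted p = 0.0139), and all 6 tumor libraries lay above all 5 naive ones. Cox5a, a subunit on the matrix side of complex IV, had 356 to 401 in tumor macrophages (median 375), against 292, 215, 290, 238 and 328 in naive macrophages. It rose by 0.47 ± 0.13 (limma adjusted p = 0.0176), again without overlap, and it had a limma adjusted p of 0.0517 without naive library 2. With the replicate number as a block neither gene passed (limma adjusted p = 0.0968 for Atp5b and 0.0802 for Cox5a).

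Other ATP synthase subunits had values on the same side without passing. Atp5a1, the alpha subunit that pairs with Atp5b, had 673 to 848 normalised reads in tumor macrophages, against 583, 626, 633, 560 and 589 in naive macrophages (log2 change 0.31 ± 0.11, limma adjusted p = 0.0572). Atp5g3, another c-ring gene, had 811 to 1132 in tumor macrophages, against 804, 702, 706, 660 and 722 in naive macrophages (0.32 ± 0.12, limma adjusted p = 0.0706). Ndufa10, an accessory subunit of complex I, did not overlap either, with 320 to 383 in tumor macrophages against 200 to 319 in naive macrophages (limma adjusted p = 0.122). In all, 5 members had every tumor macrophage library above every naive one, where 5.19% of all genes did, and 0 had every one below, where 5.47% did. With tumor library 1 left out limma called 5 members, adding Atp5a1 and Ndufs1 as higher and Cox6b2 as lower, where 17% of all genes were called.

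No member of complexes I to III passed in macrophages. The 3 complex I members with the smallest p were Ndufs1, the largest core subunit, Ndufs4 and Ndufa10, at log2 changes of 0.39, 0.36 and 0.32. Of complex II, Sdha had 231 to 295 normalised reads in tumor macrophages against 269 to 312 in naive macrophages (log2 change -0.12, 95% interval -0.36 to 0.12). Sdhb had a log2 change of 0.26 (95% interval -0.06 to 0.59) and Sdhd of 0.39 (-0.26 to 1.04). The 10 members of complex III with cytochrome c were all positive but small, from 0.02 to 0.23. Cyc1 was the highest of these, with 244 to 327 in tumor macrophages against 215 to 270 in naive macrophages, and Uqcrfs1 and Uqcrc2 both stood at 0.15. In complex IV, Cox7a2l had 1037 to 1300 in tumor macrophages against 1160 to 1428 in naive macrophages. Cox6b2, the testis isoform of a subunit at the dimer interface, had 9.41 to 92.6 in tumor macrophages against 65.4 to 226 in naive macrophages (log2 change -1.56 ± 0.53, limma adjusted p = 0.0558).

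Whether the tumor effect itself differed between the cell types was tested on all 20 libraries scaled together. None of 83 measured members was called, where 3.9% of 15600 genes were, 1.79% with a more positive effect in eosinophils and 2.11% with a more negative one. At an unadjusted p under 0.05, 3 members were more positive in eosinophils and 2 more negative, where 18.3% of all genes passed in either direction and 7.82% on the positive side. Cox7a2l had an eosinophil effect above the macrophage effect by 0.71 ± 0.23 on the log2 scale (limma adjusted p = 0.0932), and Atp5s one below it by a log2 difference of -3.04 (95% interval -5.11 to -0.97, limma adjusted p = 0.0935) on few reads. Atp5g2 followed with 0.98 ± 0.38 (limma adjusted p = 0.162), and Atp5g1, also a c-ring gene, stood at 0.56. In complex I the smallest p were those of Ndufa7, Ndufs4 and Ndufs8, with differences of 0.85, -0.69 and 1.07. In complex II the differences were -0.997 for Sdhd, 0.35 for Sdhc, -0.10 for Sdha and -0.09 for Sdhb. Uqcrc1, Uqcr11 and Uqcrq of complex III stood at 0.72, 0.79 and 0.53, and Cox6c and Cox7a2 of complex IV at -0.60 and -0.65, all with limma adjusted p over 0.3. edgeR's quasi-likelihood test called 0 members and DESeq2 called Cox7a2l alone. Without naive eosinophil library 1, limma called 11 members, 9 of them more positive in eosinophils, where 10.9% of all genes were called, and without naive eosinophil library 2 it called 0, where 1.07% were.

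The last question was how the cell types differed within each tissue. Between tumor eosinophils and tumor macrophages 35 of 83 members were lower and 10 higher, which is 42.2% and 12.05% of the members, where limma called 41.7% of 15600 genes, 23.3% lower and 18.4% higher. The median log2 difference was -0.44 for the members and -0.04 for all genes, and 61 members were negative and 22 positive. The lower members came from every complex, 14 of 35 in complex I, 3 of 4 in complex II, 3 of 10 in complex III with cytochrome c, 7 of 17 measured in complex IV and 8 of 17 in complex V. These counts include Cox6a2, which was at 0 in eosinophils and passed the filter through macrophage libraries alone. The higher ones were 2 in complex I, 2 in complex III with cytochrome c and 6 in complex IV. With each library scaled to its total reads instead, 57 were lower and 3 higher, where 47.9% of all genes were called and their median moved to -0.45. Beside these values, 11 of 14 neutrophil, 6 of 14 epithelial and 4 of 10 stromal and endothelial markers were higher in tumor eosinophils. Lower were 11 of 12 B and plasma cell and 2 of 10 T and NK cell markers. The part of these cells was not tested. Total-read scaling also moved the median of all genes to 0.19 and 0.23 in the tumor against naive comparisons of eosinophils and macrophages and to -0.47 between the naive groups.

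**Figure D3:**
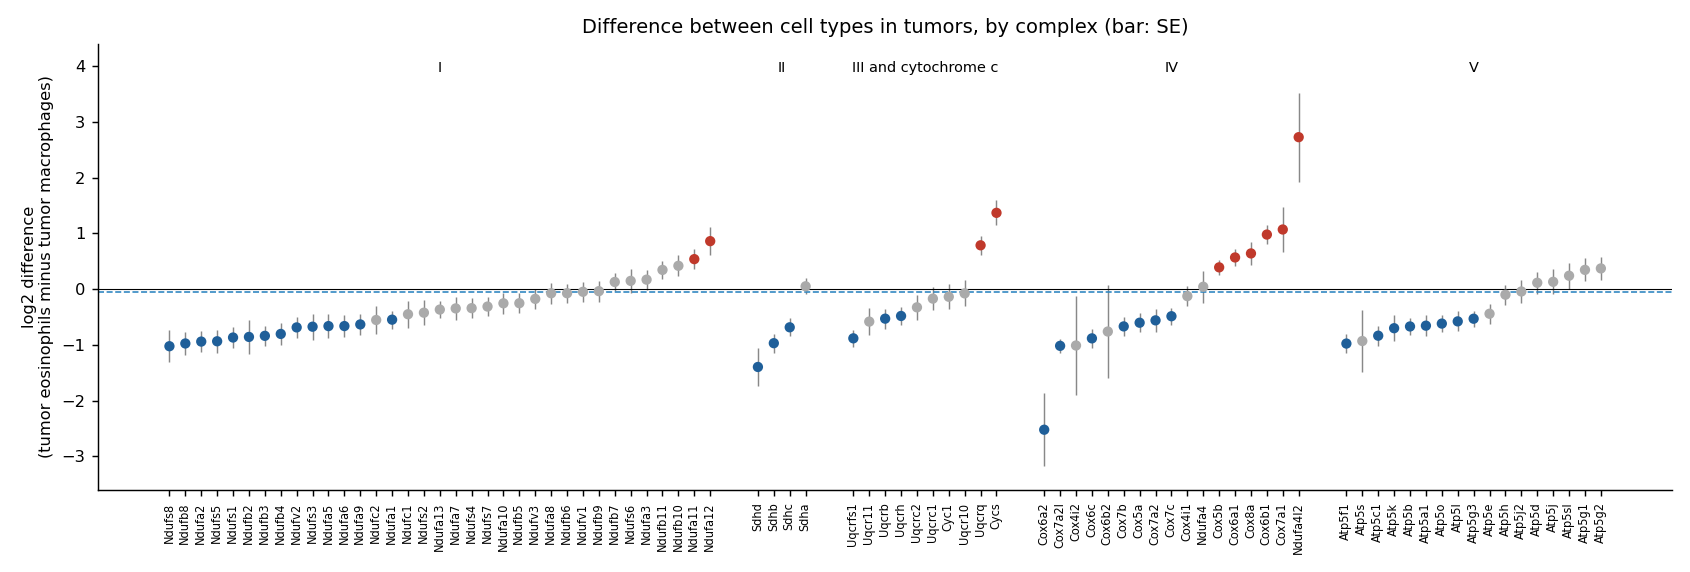
Log2 difference between tumor eosinophils and tumor macrophages (y axis) for the 83 measured members, ordered by value within each complex. Bars are SE, blue points were lower and red points higher in eosinophils by limma, grey points did not pass, and the dashed line is the median of all genes at -0.04. The Cox6a2 point is a fitted value against libraries that all held 0 reads and is no measure of fold. Points lie mostly below 0 in complexes I, II and V and on both sides in complex IV.

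In complex I the lower members took in the iron-sulfur subunits Ndufs8 and Ndufv2, the core subunits Ndufs1 and Ndufs3 and a set of accessory subunits. Ndufb8, an accessory subunit of the membrane arm, had 52.6 to 75.8 jointly scaled reads in tumor eosinophils (median 61.8), against 115 to 133 in tumor macrophages (median 126). The groups did not overlap, and the log2 difference was -0.97 ± 0.20 (limma adjusted p = 4.4e-04). Ndufs5, an accessory subunit with an NRF1 core in its promoter, had 52.8 to 125 in tumor eosinophils against 113 to 200 in tumor macrophages (-0.93 ± 0.21, limma adjusted p = 0.00101), and Ndufb4 had 66.7 to 151 against 133 to 212 (-0.80 ± 0.20, limma adjusted p = 0.00298), both with some overlap. The other lower members were Ndufa1, Ndufa2, Ndufa5, Ndufa6, Ndufa9, Ndufb2 and Ndufb3, at log2 differences from -0.94 to -0.55. Ndufa12 and Ndufa11, 2 accessory subunits, were higher. Ndufa12 had 898 to 2266 in tumor eosinophils (median 1134), against 586 to 1216 in tumor macrophages (median 636), at 0.86 ± 0.25 (limma adjusted p = 0.00899).

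Complex II showed an uneven pattern over its 4 subunits. Sdhb had 89.8 to 156 jointly scaled reads in tumor eosinophils (median 121), against 188 to 293 in tumor macrophages (median 246), without overlap. Its log2 difference was -0.97 ± 0.17 (limma adjusted p = 1e-04). The membrane anchor Sdhc had 101 to 166 in tumor eosinophils against 192 to 252 in tumor macrophages (-0.68 ± 0.16, limma adjusted p = 0.00181), also without overlap. Sdhd, the other anchor, had 5.56 to 19.7 in tumor eosinophils against 19.4 to 42.1 in tumor macrophages (-1.40 ± 0.34, limma adjusted p = 0.00243), touching at their edges. Sdha had 258 to 437 in tumor eosinophils against 299 to 385 in tumor macrophages, and its log2 difference of 0.05 ± 0.14 did not pass the test.

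In complex III the pattern split between the Rieske iron-sulfur protein and cytochrome c. Uqcrfs1, which encodes the Rieske protein, had 311 to 575 jointly scaled reads in tumor eosinophils (median 443), against 706 to 927 in tumor macrophages (median 799), without overlap. It was lower by a log2 difference of -0.88 ± 0.15 (limma adjusted p = 5.7e-05). Cycs had 2115 to 3237 in tumor eosinophils (median 2406), against 692 to 1688 in tumor macrophages (median 894), and every eosinophil library lay above every macrophage library. It was higher by 1.37 ± 0.22 (limma adjusted p = 3.1e-05). Uqcrq was also higher without overlap, at 853 to 1532 in tumor eosinophils against 548 to 805 in tumor macrophages (0.79 ± 0.17, limma adjusted p = 7.9e-04). Cyc1 overlapped, at 157 to 486 in tumor eosinophils against 319 to 408 in tumor macrophages, with a log2 difference of -0.14 ± 0.22. Uqcrb and Uqcrh, small subunits of complex III, were lower by -0.53 and -0.48 (limma adjusted p = 0.0221 and 0.0253).

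**Figure D4:**
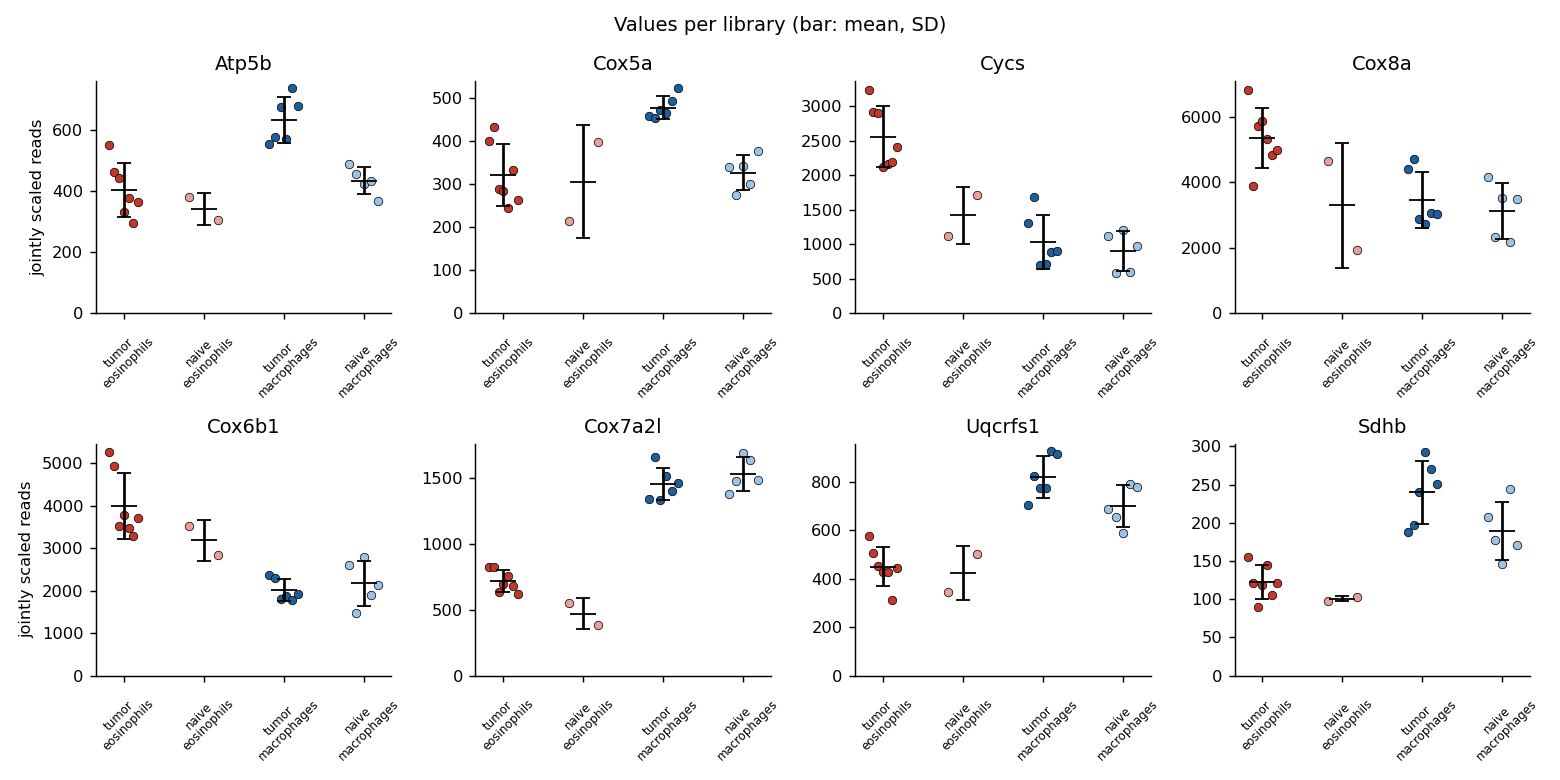
Jointly scaled reads per library (y axis, from 0) of 8 members in the 4 groups. Points are libraries and bars are the mean with its SD. Cycs and Cox6b1 were higher in every tumor eosinophil library than in any tumor macrophage library, and Cox7a2l, Uqcrfs1 and Sdhb were lower in every one.

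Complex IV had calls in both directions. Cox7a2l had 621 to 826 jointly scaled reads in tumor eosinophils (median 696), against 1335 to 1656 in tumor macrophages (median 1432). It was lower by a log2 difference of -1.02 ± 0.13 (limma adjusted p = 1.2e-06), the smallest p of all members. Cox6c, an accessory subunit with a near-identical pseudogene, had 1069 to 2073 in tumor eosinophils against 2264 to 2785 in tumor macrophages (-0.88 ± 0.18, limma adjusted p = 3.2e-04), without overlap. Cox6b1, the subunit that bridges the dimer, had 3282 to 5271 in tumor eosinophils (median 3720), against 1788 to 2367 in tumor macrophages (median 1897). It was higher by 0.98 ± 0.16 (limma adjusted p = 5.1e-05) without overlap, as was Cox6a1 at 745 to 1285 against 550 to 737 (0.57 ± 0.15, limma adjusted p = 0.00379). Cox5a, Cox7b and Cox7c were lower by -0.60, -0.67 and -0.49 (limma adjusted p from 0.00226 to 0.0128). Cox8a, at 3888 to 6817 in tumor eosinophils against 2722 to 4694 in tumor macrophages, and Cox5b were higher with overlap, by 0.64 ± 0.21 and 0.39 ± 0.13 (limma adjusted p = 0.0186 and 0.0215). Scaled to total reads, Cox5b stood at -0.02 on the log2 scale, and Cox6a1, Cox7a1, Cox8a, Ndufa11, Ndufa12 and Uqcrq no longer passed the test, whereas Cycs, Cox6b1 and Ndufa4l2 did.

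All 8 called members of complex V were lower in tumor eosinophils. Atp5f1, the b subunit of the peripheral stalk, had 75.0 to 138 jointly scaled reads in tumor eosinophils (median 125), against 190 to 245 in tumor macrophages (median 213), without overlap (-0.98 ± 0.17, limma adjusted p = 8.7e-05). Atp5b had 295 to 551 in tumor eosinophils against 556 to 740 in tumor macrophages (-0.67 ± 0.15, limma adjusted p = 0.00121), and Atp5c1 had 436 to 567 against 591 to 1108 (-0.83 ± 0.18, limma adjusted p = 6.5e-04), both without overlap. Atp5o, a further stalk subunit with an NRF1 core in its promoter, had 135 to 215 against 225 to 310 (-0.62 ± 0.15, limma adjusted p = 0.00248). The other 4 were Atp5a1, Atp5g3, Atp5k and Atp5l, between -0.53 and -0.70. Of the promoters with an entry, the NRF1 core was present in 9 of 27 of the lower members, 2 of 8 of the higher ones and 6 of 30 of those not called. For the ETS core these counts were 7 of 27, 3 of 8 and 6 of 30, and for the YY1 core 3 of 27, 0 of 8 and 7 of 30. A link between these cores and the calls was not tested.

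The same cell types from naive mice gave fewer calls, with 2 eosinophil libraries in place of 7. Between naive eosinophils and naive macrophages 16 of 83 members were lower and 1 was higher, where limma called 28.9% of all genes, 14.9% lower and 14% higher. The median log2 difference was -0.33 for the members and 0 for all genes. Cox7a2l again had the smallest p, at 553 and 386 jointly scaled reads in naive eosinophils against 1377, 1476, 1693, 1636 and 1484 in naive macrophages (-1.72 ± 0.19, limma adjusted p = 3.2e-07). Ndufs8 had 44.5 and 8.63 in naive eosinophils against 66.5 to 107 in naive macrophages (-2.10 ± 0.44, limma adjusted p = 7.3e-04), but without naive eosinophil library 2 it stood at -0.97 (limma adjusted p = 0.126). Sdhb and Sdhc were lower by -0.88 ± 0.26 and -1.03 ± 0.25 (limma adjusted p = 0.0128 and 0.0025), and Sdhd was not called at -0.40 ± 0.52. Uqcrfs1, Uqcrc1 and Uqcr11 of complex III were lower by -0.74, -0.89 and -1.37, and Atp5c1, Atp5e and Atp5f1 of complex V by -1.02, -0.85 and -0.86. Cox7c was lower by -0.71, and in complex I Ndufv2, Ndufb8, Ndufa7, Ndufa9 and Ndufs3 were lower by log2 differences from -1.32 to -0.90. Cycs, which passed between the tumor groups, did not pass here at 0.70 ± 0.33 (limma adjusted p = 0.124), and a difference between those contrasts is the difference of the tumor effects, at 0.67 ± 0.40 (limma adjusted p = 0.392). Cox5b was the member called higher, with 651 and 728 in naive eosinophils against 405 to 528 in naive macrophages (0.57 ± 0.20, limma adjusted p = 0.0334). Without naive eosinophil library 2 the count of calls was 7, of which 3 (Cox7a2l, Cox7c and Uqcrfs1) were among the 17, where 19.5% of all genes were called. Uqcrc1 then stood at 0.04 and Atp5e at -0.26 (limma adjusted p = 0.592), so these values rest on that library. The call was lost in 9 of 31 alternative settings for Uqcrc1 and in 8 of 31 for Cox5b. These settings include ones that left out tumor libraries only, whose values do not enter this difference, and all 17 calls held in those. With total-read scaling the count was 45, all lower, where 32% of all genes were called. Of the markers, 7 of 14 neutrophil, 2 of 14 epithelial and 1 of 10 stromal and endothelial ones were higher in naive eosinophils. Lower were 10 of 12 B and plasma cell and 2 of 10 T and NK cell markers. The part of these cells was not tested.

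Several complex IV subunits exist as isoforms from separate genes. Cox4i1 had 909 to 1431 jointly scaled reads in tumor and 1078 and 421 in naive eosinophils, and 1124 to 1308 in tumor and 916 to 1260 in naive macrophages. Cox4i2, known from lung, had 0 to 20.1 and 90.9 and 0 in the same eosinophil groups, and 5.69 to 16.7 and 3.30 to 47.3 in the macrophage groups. Cox6a2, the heart and muscle partner of Cox6a1, had 0 reads in all 9 eosinophil libraries, against 0 to 16.7 jointly scaled reads in tumor and 0 to 13.9 in naive macrophages. Against a floor of 3 reads over the 7 tumor eosinophil libraries, its 43 reads in tumor macrophages put it at least 15.5-fold lower in tumor eosinophils. It passed the filter only through macrophage libraries, so its call is no support for the direction, and the call was lost with limma-voom (adjusted p = 0.105). It overlaps Itgad on the opposite strand, and Itgad itself had at most 2.08 in any library.

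**Figure D5:**
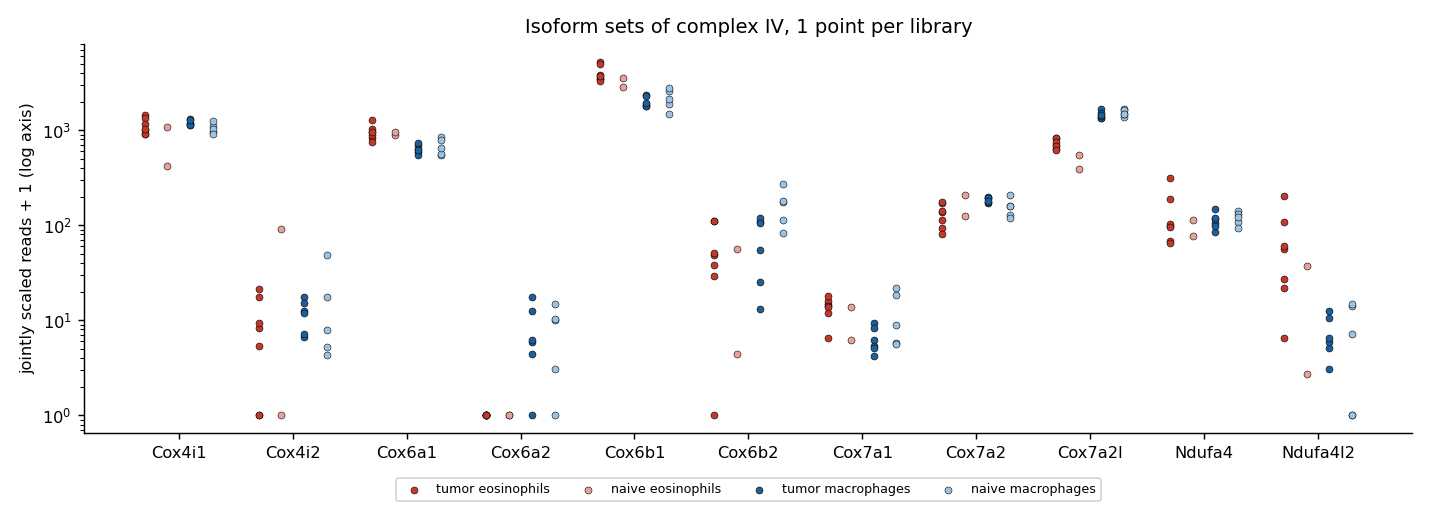
Jointly scaled reads plus 1 (log axis) of 11 complex IV genes in every library, grouped by gene and coloured by group. Values are compared between groups within a gene, not between genes. Cox6a2 is at 0 in all eosinophil libraries, and Ndufa4l2 reaches 204 in tumor eosinophils, against at most 13.9 in macrophages.

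Cox6b2 had 0 to 111 jointly scaled reads in tumor and 55.4 and 3.45 in naive eosinophils, and 12.2 to 118 in tumor and 82.5 to 268 in naive macrophages. Cox7a1, the muscle isoform of Cox7a2, had 5.56 to 16.8 in tumor eosinophils against 3.25 to 8.33 in tumor macrophages (log2 difference 1.07 ± 0.41, limma adjusted p = 0.0409, a call lost in 13 of 30 alternative settings), and 5.18 to 12.7 and 4.58 to 20.8 in the naive groups. Cox7a2 had 80.6 to 176 in tumor eosinophils against 172 to 199 in tumor macrophages (-0.56 ± 0.20, limma adjusted p = 0.0292, a call lost in 8 of 31 settings). The settings for both genes include ones that left out naive libraries, whose values do not enter this difference, and neither call was lost in those. Cox8b was at 0 in every eosinophil and tumor macrophage library, with at most 1.53 in naive macrophages, and Cox7b2 and Cox8c had at most 4.39 and 19.1 in any library. Ndufa4l2, a paralogue of Ndufa4 known from hypoxic cells, had 5.56 to 204 in tumor eosinophils (median 55.5), against 2.08 to 11.7 in tumor macrophages (median 5.16). It was higher by 2.73 ± 0.80 (limma adjusted p = 0.00862), and in naive eosinophils it had 36.3 and 1.73. Ndufa4l2 overlaps Shmt2 on the opposite strand, which had 168 to 821 in tumor eosinophils and 312 to 543 in tumor macrophages, and the strand setting of the counting is not given. Ndufa4 had 63.6 to 312 in tumor eosinophils against 83.3 to 149 in tumor macrophages.

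Genes around the respiratory chain were counted from lists of assembly factors, tricarboxylic acid cycle enzymes, pyruvate dehydrogenase with mitochondrial carriers, regulators of mitochondrial biogenesis and the 13 mitochondrially encoded subunits. Between tumor and naive eosinophils 0 of 46 assembly factors, 0 of 14 cycle enzymes, 0 of 14 pyruvate dehydrogenase subunits and carriers and 0 of 13 mitochondrially encoded subunits were called, where 4.61% of all genes were. The regulator Myc was called, but it passed the filter only through tumor libraries, so the call is no support for the direction. It had 0 reads in both naive libraries and a level at least 6.73-fold higher in tumor eosinophils, against a floor of 3 reads over the naive group. Between tumor and naive macrophages 5 of 14 pyruvate dehydrogenase subunits and carriers rose and 0 fell, where 8.5% of all genes were higher. These were Mpc1, a subunit of the pyruvate carrier (0.50 ± 0.12), the phosphate carrier Slc25a3 (0.39 ± 0.12), the ADP/ATP carrier Slc25a5 (0.51 ± 0.15), the citrate carrier Slc25a1 (0.66 ± 0.17) and the outer membrane channel Vdac2 (0.48 ± 0.13), with limma adjusted p from 0.0107 to 0.0319. Of 48 assembly factors 1 was called, Cox17, the copper chaperone of complex IV, which rose by a log2 change of 0.77. Of 13 regulators 1 was called, Gabpb1, a subunit of GABP, which rose by 0.72. Of the other macrophage lists, 0 of 14 cycle enzymes and 0 of 13 mitochondrially encoded subunits were called. The tumor effect was called lower in eosinophils than in macrophages for 1 of 49 assembly factors, 1 of 14 cycle enzymes and 1 of 14 carriers. In this contrast 3.9% of all genes were called, 2.11% on that side. The called genes were Ndufaf5, Mdh2 and Mpc1, at log2 differences of -2.07, -1.16 and -1.20 (limma adjusted p = 0.0491, 0.0485 and 0.036). The contrast had only 2 naive eosinophil libraries.

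Between tumor eosinophils and tumor macrophages the nuclear lists differed in their direction, where 23.3% of all genes were lower and 18.4% higher. Of 49 assembly factors 15 were lower and 2 higher, and the median log2 difference was -0.51. Of 14 carriers and pyruvate dehydrogenase subunits 8 were lower and 0 higher, with Slc25a4 at -2.34 ± 0.40 and Mpc1 at -1.25. The cycle enzymes split, with 5 lower, among them Idh2 at -1.90 and Fh1 at -1.77, and 4 higher, among them Mdh2 at 1.38. Of 13 regulators 3 were lower, Gabpa, Tfb1m and Myc at -0.80, -2.30 and -1.66, and 1 was higher, Gabpb1 at 1.53. Of the 13 mitochondrially encoded subunits 9 were higher, 1 was lower and the median was 1.42. mt-Nd4, a proton-pumping subunit of complex I, had 304404 ± 94475 jointly scaled reads in tumor eosinophils against 74873 ± 10082 in tumor macrophages (SD, n = 7 and 6). The lower one was mt-Nd6, with 16.7 to 40.0 in tumor eosinophils against 77.4 to 113 in tumor macrophages (log2 difference -1.66). Between the naive groups 7 of the 13 were higher and 1 lower, where 14% of all genes were higher and 14.9% lower.

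Reads at 3′ ends of near-identical copies and of overlapping genes limit some members. A near-identical stretch in another gene, taken as 97% identity over at least 100 of the last 300 bases, was found for 20 members, 17 of them with a pseudogene copy. Exons of 29 members overlapped another gene in the GENCODE annotation of GRCm38. Of the members described, Cycs, Cox7a2l, Uqcrfs1, Sdhb, Cox6b1 and Atp5b had neither, Cox5a overlapped Gm26631 on the opposite strand, and Cox5b, Cox6c, Ndufa12, Ndufb2, Ndufb3, Ndufb8, Ndufs3, Ndufs5, Uqcr11, Atp5c1, Atp5f1 and Atp5g1 each had 1 near-identical copy. Atp5g2, Atp5o and Cox7c had 2, Uqcrb 3 and Atp5l 9. Between the tumor groups 12 of the 35 lower members, 2 of the 10 higher ones and 6 of the 38 not called had such a copy. The counting could split reads between a member and its copy, so these values are uncertain. Atp5f1 also overlapped Wdr77 on the opposite strand. On GRCm38 Cycs lies at chr6:50562563-50566538, Cox7a2l at chr17:83501918-83517330, Uqcrfs1 at chr13:30540308-30545362, Sdhb at chr4:140961203-140979193, Atp5b at chr10:128083273-128090391 and Cox5a at chr9:57521274-57532426.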

How the data were processed

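CEL-Seq libraries of eosinophils (9) and macrophages (11) were read from 2 deposited tables. Per the labels each sample was read as 3 technical replicates with different primer pools; the sources used here say neither how these were combined nor whether counting used strand. The submitters' processing notes name the genome GRCm38.p5, TopHat2 2.1.0 with Bowtie2 2.2.6, FastQC 0.11.5 and Trim Galore, and DESeq2 1.14.1 beside HTSeq 0.6.1. The deposited values are a signal per gene and library, gene reads divided by that library's size factor; 100% of the non-zero values came out as whole reads within 0.1 read, and the recovered reads gave 1477255 to 8520874 per library. This depth bounds the precision of low genes, and intervals and floors cover counting error only where reads are given. The 27 rows named by a bare number, at most 0.132% of a library's reads, were left out.

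Each cell type was tested on its own by limma 3.58.1 (R 4.3.3, moderated with a trend, two-sided) on log2(value + 1), keeping genes with a value of 10 in at least 2 eosinophil or 5 macrophage libraries. Fold changes on this scale understate changes of low genes. Comparisons across cell types used 1 limma fit of all 20 libraries on recovered reads scaled together by TMM (edgeR 4.0.16), the jointly scaled reads, keeping genes with 10 in at least 2 libraries. P-values were adjusted by Benjamini-Hochberg over all genes tested and called under 0.05. The scripts were tested on simulated data. Named are all called members, the 3 members of each complex with the smallest p, complex II, Cycs, Cyc1 and the isoform sets. Atp5s in eosinophils was named after its values were seen. Alternatives were other pseudocounts (5 and 0.5), no filter and a minimum of 50, total-read, TMM or median-of-ratios scaling, edgeR's quasi-likelihood test, DESeq2 1.42.0, limma-voom with quality weights, each library left out, tumor eosinophil libraries 2 and 3 left out, and a replicate block. Members and lists were chosen with earlier results of these data known.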

Additional observations from a re-analysis of the deposited data

Results flagged for a closer look

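Within each group of 4 to 10 libraries, the library farthest from the others was compared with the spread of the group on the authors' scale. This was done for 62 members, the sum over all members and the sum of each complex, in 201 groups of values. Chance flags about 1 in 20 such groups, and 11 of the 201 stood apart. In tumor eosinophils library 2 was high for Atp5l at 686 normalised reads (others 472 to 523), for Ndufa5 at 101 (others 41.2 to 66.2) and for Ndufb2 at 42.5 (others 13.9 to 23.5). Library 1 of that group was high for Uqcrc1 at 280 (others 159 to 207). In tumor macrophages library 1 was low for Ndufs1 at 196 (others 269 to 300) and high for Ndufs3 at 164 (others 130 to 138). Library 3 was low for Cox7b at 260 (others 290 to 307) and for Uqcrb at 307 (others 347 to 372), and library 5 was high for Atp5g3 at 1132 (others 811 to 907). In naive macrophages library 1 was high for Ndufa7 at 189 (others 158 to 166) and for Uqcrb at 424 (others 312 to 338).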

How the results depend on the processing

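Between tumor and naive eosinophils the count of called members was 0, against 1 with total-read scaling (Cycs) and 3 with DESeq2, and 0 to 6 with 1 library left out. Between tumor and naive macrophages it was 2, against 14 with total-read scaling, 4 with TMM scaling and 4 with DESeq2, and 2 to 5 with 1 library left out. Of these 2 members 0 were called under every alternative. For the difference of the tumor effects it was 0, against 1 with a pseudocount of 5 (Atp5s), 1 with median-of-ratios scaling and 1 with DESeq2 (Cox7a2l in both), and 0 to 11 with 1 library left out. Between tumor eosinophils and tumor macrophages it was 45, and 43 to 49 with 1 library left out; 30 of the 45 members were called in the same direction under every alternative. Between the naive groups it was 17, against 45 with total-read scaling and 4 with limma-voom, and 7 to 20 with 1 library left out; Cox7a2l was the 1 member called under every alternative. Where an arm was left with 1 naive library, that library was assumed to vary like the others. Of all genes, total-read scaling called 4.33% and DESeq2 10.5% between tumor and naive eosinophils. Between tumor and naive macrophages total-read scaling, TMM scaling and DESeq2 called 20.8%, 17.1% and 19.6%. For the difference of the tumor effects a pseudocount of 5, median-of-ratios scaling and DESeq2 called 4.13%, 3.47% and 6.73%. Between the naive groups total-read scaling called 32% and limma-voom 16.6%. With total-read scaling the sign turned for Cox7a2l (0.049) and Sdha (0.086) between tumor and naive macrophages and for Cox5b (-0.024) between the tumor groups. In the difference of the tumor effects it turned for Sdha with median-of-ratios scaling (0.036) and DESeq2 (0.056). With 1 library left out that difference ran from -0.102 to 1.23 for Atp5g1, -0.049 to 2.19 for Ndufs8, -0.024 to 0.717 for Sdhc and -0.213 to 1.65 for Uqcrc1, each negative without naive eosinophil library 2. Between the naive groups it ran from -0.885 to 0.088 for Sdhd, turning without naive eosinophil library 1, and from -1.82 to 0.043 for Uqcrc1, turning without library 2. The cause was not tested in any of these.

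Replicate numbers did not pair the macrophage libraries, whose same-numbered deviations correlated at 0.056, -0.311, -0.214, 0.026 and -0.146, and eosinophils had only 2 such pairs (0.127 and 0.124). With the replicate block the count was 1 between tumor and naive eosinophils (Ndufa4l2), where 8.81% of all genes were called. It was 0 between tumor and naive macrophages, where 10.7% of all genes were called. The count was 0 for the difference of the tumor effects (2.77% of all genes), 43 between the tumor groups (40.5%) and 16 between the naive groups (26.5%).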
